A study of Mus musculus with 24 samples.

Results

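Drd2 striatal projection neurons, called D2 nuclei here, are the GABAergic output neurons of the indirect pathway. A total of 2287 D2 nuclei were found among 87893 deep brain nuclei with at least 3000 UMIs (unique molecular identifiers, 1 for each captured RNA molecule), and among 204925 nuclei kept in the whole series. They were chosen by their counts: Rgs9 of at least 3, the sum of Drd2, Adora2a and Gpr6 of at least 3, no Drd1, at most 1 UMI of Slc17a6 and Slc17a7, at most 2 of Mog, Mag and Mobp, and no Csf1r. These 11 gate genes describe the selection and are not results. Nuclei were isolated from frozen tissue of perfused mice of the strain B6.Pdgfbtm3Cbet, with 1 deep brain and 1 cortical library a mouse. The 6 mutants were homozygous (Pdgfb ret/ret) and female. The 6 controls were heterozygous (Pdgfb ret/wt), so both groups carried the ret allele and no wild-type mouse was compared. Mouse 6 of the controls was the only male. Labelled ages were 5 months, with up to 18 further days, for mice 1 to 3 of each genotype and 4 months, with 7 to 24 further days, for mice 4 to 6. The deep brain dissection is described as pallidum, interbrain, midbrain and pons, and how much striatum each library held is not given in the sources used here.

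The striatum is built mainly from 2 kinds of GABAergic projection neuron. Neurons of the direct pathway carry the D1 dopamine receptor, which raises cyclic AMP, and make the peptides substance P and dynorphin. Neurons of the indirect pathway carry the D2 dopamine receptor, which lowers cyclic AMP, and the adenosine receptor Adora2a, which raises it, and they make enkephalin from Penk. Homozygous loss of the retention motif of PDGF-B leaves vessels poor in pericytes, and vessels of the deep brain calcify in these mice.

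The number of D2 nuclei differed widely between mice. Mutant mice 1 to 6 gave 93, 271, 210, 426, 143 and 107 D2 nuclei, and control mice 1 to 6 gave 247, 2, 69, 185, 70 and 464. Control mouse 2 stands apart, since its sum over 2 nuclei held 23748 UMIs and 1 UMI there equals 42.1 CPM (UMIs of a gene per 1000000 UMIs of the sum). The other sums held between 801368 and 5112563 UMIs. Levels of control mice are therefore given over 5 libraries, without control mouse 2, whereas the fits keep all 12 libraries unless stated. The cortical library of the same mouse held 53 nuclei that met the same limits. Median depth was 10686 to 14198 UMIs per D2 nucleus, deep brain libraries held 64736053 to 96459036 UMIs, and 325 of the 2287 barcodes were also kept in another deep brain library, 14 of them as a D2 nucleus.

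**Figure D1:**
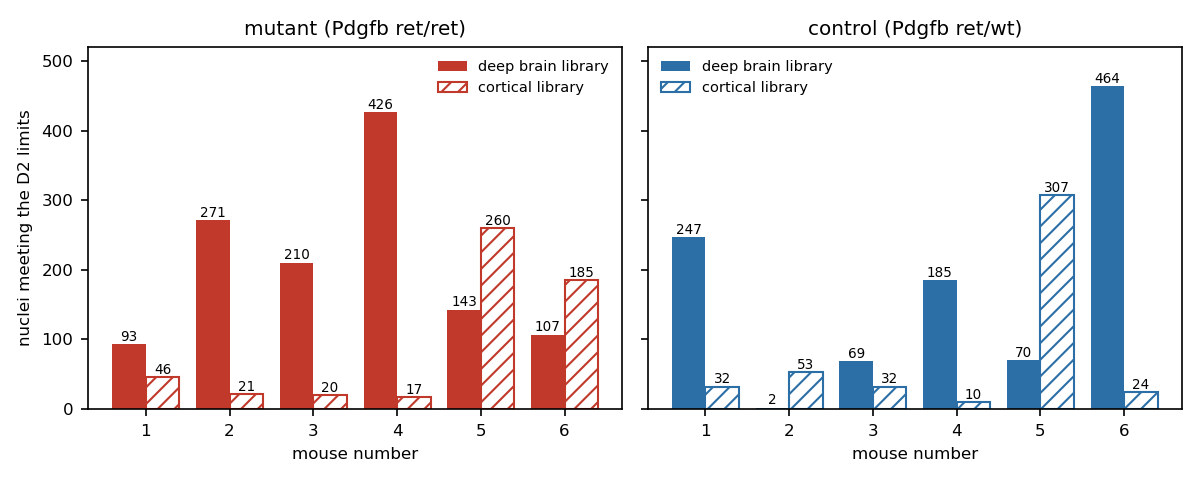
Nuclei that met the D2 limits in the deep brain library (filled bars) and in the cortical library (hatched bars) of each mouse, with mutants on the left and controls on the right. Control mouse 2 had 2 such nuclei in the deep brain and 53 in the cortical library, and mutants 5 and 6 and controls 2 and 5 had more in the cortical library than in the deep brain library.

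The Drd2, Adora2a and Gpr6 sum was exactly 3 in 45 members, and 38 nuclei with a sum of 2 were just outside, 5 of them in control mouse 2. Rgs9 was exactly 3 in 86 members and 2 in 93 nuclei outside. A single Drd1 UMI kept 86 nuclei out and a higher Drd1 count kept out 59. Glutamatergic UMIs kept out 137, oligodendrocyte UMIs 112 and depth 4.

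The D2 share of deep brain nuclei did not differ detectably between genotypes. Mutant libraries held 1.28% to 5.01% D2 nuclei (median 2.30%) and control libraries 0.0268% to 6.11%, with 2.06% as their median, so the groups overlapped and the difference of 0.33 percentage points gave p = 0.773 (exact permutation test, two-sided, 924 divisions, smallest possible p 0.00216). Without control mouse 2 the difference was -0.145 (exact permutation p = 0.896). Within the older mice 1 to 3 it was 1.14 percentage points (exact permutation p = 0.4) and within mice 4 to 6 it was -0.48 (exact permutation p = 0.7), where 20 divisions allow no p under 0.1. Among projection neurons, counted as D2 nuclei plus the 1809 D1 nuclei chosen with Drd1 of at least 3 and none of the Drd2, Adora2a and Gpr6 UMIs, D2 nuclei made up 48.4% to 58.6% in mutants and 50.0% to 63.4% in controls other than mouse 2. That difference was 2.86 percentage points with all 12 libraries (exact permutation p = 0.703) and -1.58 without control mouse 2 (exact permutation p = 0.597). Limits of 2 UMIs in place of 3 were also tried for the Drd2, Adora2a and Gpr6 sum and for Drd1 of D1 nuclei, with Rgs9 kept at 3. The difference in the D2 share of projection neurons was then -4.59 percentage points, lower in mutants (exact permutation p = 0.0411). Among all alternatives tried for the 2 shares, only this one gave a p under 0.05. It kept control mouse 2, which had 2 D2 and 5 D1 nuclei at limits of 3, and was not tried without that mouse.

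The label was checked against genes that the selection did not use. Penk was detected in 98.1% of D2 nuclei, against 36.4% of D1 nuclei and 30.6% of 8466 other GABAergic nuclei, with median depths of 9911 to 16961.5 UMIs in D1 nuclei and 8128 to 11327 in the others. The median was 22 Penk UMIs in a D2 nucleus and 0 in the others, although single D1 and other GABAergic nuclei reached 47 and 94, and how much of the lower shares was free RNA in the droplets was not tested. Drd2 was detected in 99.3% of D2 nuclei, Adora2a in 95.2% and Gpr6 in 71.1%, values that the selection favoured. Of 24 tested genes of striatal projection neurons, 23 were higher in D2 nuclei than in the other GABAergic nuclei and 1 was lower, with a median log2 fold change of 3.60 against -0.03 for all genes. Across all 13757 genes 34.4% were higher and 37.3% lower in that comparison (edgeR, library as a block). Size factors of DESeq2 gave 3543 higher and 6263 lower in place of 4732 and 5129, and edgeR with the same kind of size factors 3669 and 6479, a shift of the median of all genes to -0.17.

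Ppp1r1b, which encodes the phosphatase inhibitor DARPP-32, was higher by 5.33 on the log2 scale and the retinoic acid receptor gene Rarb by 5.24. Slc32a1, the vesicular GABA transporter, was the member that was lower, by -0.84. All 8 tested interneuron markers were lower in D2 nuclei, among them Vip at -4.56, Lhx6 at -4.36, Pvalb at -3.27 and Sst at -2.48. Among genes with at least 20 CPM in the higher kind and the same sign in all 12 libraries, those furthest higher were Sh3rf2 (8.96), Gm50024 (7.58), Mhrt (7.20), Gm50370 (6.94), Gpr52 (6.32), Inf2 (5.90), Car12 (5.83) and Prkch (5.77). Those furthest lower were Pappa (-5.78), 6330411D24Rik (-5.48), Sox14 (-5.42), Kcnmb2 (-5.32), Grik1 (-5.23), Lhx1os (-5.22), Adarb2 (-5.14) and Flt3 (-5.07). Markers of glia were not all lower in D2 nuclei than in the other GABAergic nuclei. Mbp (0.82), Aqp4 (0.81), Gja1 (0.45) and Slc1a3 (0.36) were higher, and 5 of 5 tested oligodendrocyte and 5 of 6 astrocyte markers were positive, whereas all 4 precursor markers were lower. By genotype, the summed level of the 5 oligodendrocyte markers outside the gate was 158 to 248 CPM in mutants and 201.5 to 307 in controls, that of 6 astrocyte markers 67.3 to 226 (median 198) and 84.9 to 180 (median 129), that of 7 microglial markers other than Csf1r 17.7 to 31.1 and 15.4 to 22.3, and that of 7 vascular markers 5.58 to 34.8 and 2.50 to 30.9. The 4 markers of oligodendrocyte precursors summed to 11.6 to 20.4 CPM in mutants and 5.99 to 18.7 in controls, the 7 glutamatergic markers outside the gate to 12.0 to 33.3 and 11.4 to 37.6, and the 11 interneuron markers to 24.1 to 73.3 and 36.6 to 47.4.

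D2 and D1 nuclei of the same libraries differed in a large set of genes beyond the receptors that chose them. Of 11030 genes tested without the gate genes, 742 were higher in D2 nuclei (6.73%) and 755 lower (6.84%; edgeR with the library as a block). Without control mouse 2 the counts were 788 and 823, and 1488 genes were shared with the fit of all libraries. Nuclei thinned to 3000 UMIs each gave 353 and 352, of only 6598 genes that could then be tested.

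The peptides separated the kinds. Penk, the enkephalin precursor, was at 1749 to 2976 CPM in D2 nuclei (median 2018) and at 19.3 to 185 in D1 nuclei (median 74.4). All 11 D2 values lay above all D1 values, and the log2 fold change was 4.67 (SE 0.19, adjusted p = 1.98e-17). Tac1, the substance P precursor, was at 6.24 to 47.3 CPM in D2 nuclei (median 15.5) and at 199 to 482 in D1 nuclei (median 300.5), again without overlap, with a log2 fold change of -3.77 (SE 0.12, adjusted p = 1.18e-19). Pdyn, the dynorphin precursor, was at 0 to 5.52 CPM in D2 nuclei and at 54.8 to 172 in D1 nuclei, with a log2 fold change of -5.39.

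G protein-coupled receptors were split in both directions: of 29 tested, 8 were higher in D2 nuclei, 7 lower and 14 not called. Over all genes 6.73% were higher and 6.84% lower. Gpr52, an orphan receptor that couples to cyclic AMP synthesis, was at 45.9 to 104 CPM in D2 nuclei and at 1.20 to 4.63 in D1 nuclei, a log2 fold change of 4.53 (SE 0.10, adjusted p = 3.48e-23). Oprd1, the delta opioid receptor that enkephalin binds, was at 49.9 to 74.6 CPM in D2 nuclei and at 0 to 5.56 in D1 nuclei (log2 fold change 4.79). The muscarinic receptors went opposite ways. Chrm3 was at 229 to 446 CPM in D2 nuclei and at 13.0 to 42.2 in D1 nuclei (log2 fold change 3.90), and Chrm4 was at 0 to 2.96 CPM in D2 nuclei and at 35.4 to 52.7 in D1 nuclei (log2 fold change -4.85). The serotonin receptor genes Htr7, Htr2c and Htr2a were higher in D2 nuclei by 2.00, 0.87 and 0.38, whereas Drd3, Npy1r and Hrh2 were lower by -1.32, -1.09 and -1.03.

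Adenosine is the ligand of Adora2a, a receptor that helped to choose D2 nuclei, and its handling differed. Nt5e, the ecto-enzyme that makes adenosine from AMP, was at 31.6 to 65.1 CPM in D2 nuclei and at 0 to 12.0 in D1 nuclei (log2 fold change 3.06). Adk, the kinase that removes adenosine inside the cell, was at 246 to 562 CPM in D2 nuclei and at 53.3 to 87.9 in D1 nuclei (log2 fold change 2.55). Of the 16 tested genes of adenosine and endocannabinoid handling 3 were higher, among them Mgll at 0.23, and 4 lower: Dagla (-0.21), Entpd1 (-0.43), Faah (-0.53) and Slc29a1 (-0.68). The shares over all genes were 6.73% higher and 6.84% lower.

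In the cyclic AMP and DARPP-32 cascade 22 of 53 tested genes were higher in D2 nuclei and 3 lower, with a median log2 fold change of 0.11. Over all genes 6.73% were higher and 6.84% lower, so the 3 lower genes were near that share. The phosphodiesterases Pde4d and Pde4b, which break down cyclic AMP, were higher by 1.38 and 0.99. Most other differences in the cascade were small, with Pde10a at 0.15 and Gnal at 0.20. The adenylyl cyclase gene Adcy2 was lower by -1.91 and Gnai1 by -0.73. Among ion channels 16 of 55 were higher and 7 lower, from Trpc4 at 2.41 to Trpc5 at -2.08, a pair of channels of the same family in opposite directions. The kainate receptor gene Grik3 was at 233 to 378 CPM in D2 nuclei and at 1.42 to 17.0 in D1 nuclei (log2 fold change 5.05), while 5 of 15 glutamate receptor genes were lower, among them Grin3a, an NMDA receptor subunit. In the GABA system 6 of 18 were higher, among them Gabra3 at 0.71, and Gabra5 was lower at -0.44. As 1 of 18, Gabra5 was also near the share of lower genes.

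Transcription factors of the direct pathway were low in D2 nuclei: Isl1 by -4.81, Ebf1 by -5.23 and Zfp521 by -2.38. Foxp2 was at 136 to 347 CPM in D2 nuclei and at 856 to 1106 in D1 nuclei, a difference of -2.14 in a gene listed for both kinds. Of 11 genes known from D1 neurons 10 were lower and Rreb1 was not called (0.20, adjusted p = 0.154). Of 9 tested genes known from D2 neurons 8 were higher, and Gulp1 was lower by -0.60. Of 8 genes known from striosomes, patches of the striatum with their own inputs, 1 was higher in D2 nuclei (Bach2, 0.49) and 4 lower, which were Lypd1 (-0.36), Sema5b (-0.64) and the D1 peptide genes Tac1 and Pdyn. Of 4 genes of the surrounding matrix 3 were higher. Of 18 immediate early genes 5 were higher and none lower. The shares over all genes were 6.73% higher and 6.84% lower, so 1 call among 8 genes says little. The remaining genes furthest apart were Upb1 (6.68), Unc5d (3.49), Ptprm (2.99), Nell1 (2.79) and B3gat1 (1.97) on the D2 side and Slc35d3 (-5.70), Il20ra (-5.46), Impg1 (-5.04), Cntnap3 (-4.51), Lingo2 (-4.46), Sntg2 (-3.80) and Adarb2 (-3.48) on the D1 side.

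**Figure D2:**
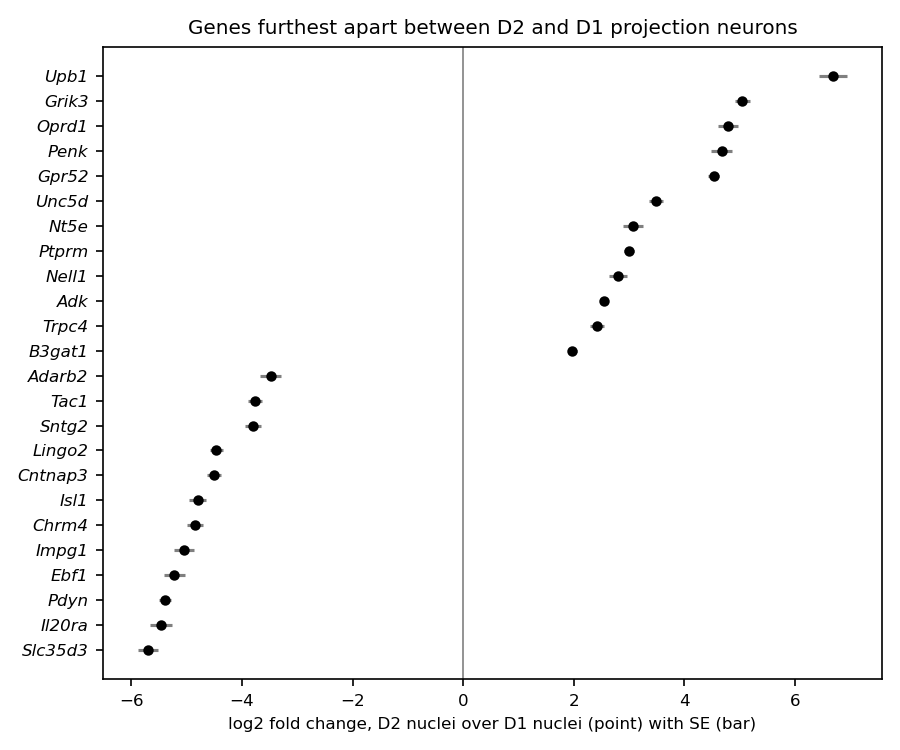
Log2 fold change of D2 over D1 nuclei (point) with its standard error (bar) for the 12 genes furthest apart in each direction among those with at least 20 CPM in the higher kind and the same sign in all 12 libraries, which leaves out Chrm3 and Plxdc1, with the same sign in 11. Upb1 at 6.68 and Slc35d3 at -5.70 stand at the ends, and no gene lies between -3 and 1.9.

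Between genotypes, the deep brain D2 nuclei of mutants had 153 genes higher and 54 lower of 11255 tested (1.36% and 0.48%). None of the 26 genes of striatal projection neurons was called, and Penk was at 1749 to 2700 CPM in mutants (median 1800) and at 1801 to 2976 in controls, with 2279 as their median, a log2 fold change of -0.16 with adjusted p = 0.795. Pdgfb itself was at 2.96 to 5.26 CPM in mutants and at 1.25 to 5.52 in controls, too low to be tested. Of 7 tested genes known from D1 neurons none was called, but 6 were positive. Their median log2 fold change was 0.67 against 0.01 for all genes, with Ebf1 the highest (1.37, edgeR adjusted p = 0.108). Sntg2, which was lower in D2 than in D1 nuclei, was called higher in mutants (1.61, edgeR adjusted p = 0.00585). It is named after its value was seen, and no cause was tested. Gpr52 was the only gene of the 12 known from D2 neurons that was called, at 45.9 to 78.6 CPM in mutants and at 87.1 to 104 in controls, which did not overlap (log2 fold change -0.52, adjusted p = 0.0293), but it lost its call in 14 of 30 alternatives, DESeq2 among them, and without control mouse 6 or mutants 2, 3 or 5. Several genes named below were also called in D1 nuclei of the same libraries, in the same direction. By log2 fold change in D1 nuclei they include Nrp2 (2.43), Cux2 (2.27), Drd3 (1.53), Gfra1 (1.69), Kcnip1 (1.43), Klhl1 (-1.34), Grm8 (-1.39) and Per1 (-0.82). Others were not called in D1 nuclei, among them Vwc2l (0.17), Cartpt (1.16), Fam126a (0.81), Kcnj3 (0.17) and Cnr1 (-0.80).

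The count of genes called between genotypes in D2 nuclei depended on the libraries and the tool. Without control mouse 2 it was 162 higher and 83 lower, with 198 of the 207 genes shared. It fell to 80 and 33 without control mouse 6, to 90 and 23 without mutant 2 and to 104 and 26 without mutant 3. DESeq2 gave 75 and 14. Within mice 1 to 3 the counts were 84 and 61 and within mice 4 to 6 they were 43 and 9. Leaving out a single mouse also ended the call of Frem2 (mutant 3), Gabra3 and Kcnh1 (control 6), Gpr149 (control 6 or mutant 2), Rbm20 (control 1, control 6 or mutant 2), and Coch and Wfs1 (control 1, control 6, mutant 2 or mutant 3). For Pfkfb3 any of 6 mice did so, for Cnr1 and Pde4d any of 8 and for Plcb4 any of 9. With DESeq2 the calls of Grik4, Grm8, Atp6ap1l, Rbm20, Cnr1, Coch, Pfkfb3, Plcb4 and Wfs1 were lost too.

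Nrp2 (chromosome 1, 62703285 to 62818695, plus strand, GRCm38) encodes a semaphorin and VEGF coreceptor. It was at 18.5, 68.7, 98.5, 97.7, 108 and 120.2 CPM in mutants 1 to 6 and at 6.59, 3.74, 16.6, 11.1 and 7.43 in controls 1, 3, 4, 5 and 6. Mutant 1 was the lowest of its group but stood above the highest control, and the log2 fold change was 3.21 (SE 0.34, adjusted p = 1.72e-05). Vwc2l, a secreted BMP modulator, was at 17.2 to 38.8 CPM in mutants and at 3.91 to 8.84 in controls (log2 fold change 2.52, adjusted p = 6.01e-06). Gfra1, the GDNF coreceptor, was at 9.25 to 20.1 CPM and at 1.25 to 8.84, also apart (log2 fold change 1.74). The transcription factor gene Cux2 was at 20.0 to 70.8 CPM in mutants and at 7.49 to 20.1 in controls (log2 fold change 1.99), so the lowest mutant and the highest control overlapped.

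Receptors and channels followed. Drd3, the D3 dopamine receptor, was at 15.5, 27.6, 37.2, 25.0, 20.1 and 42.4 CPM in mutants 1 to 6 and at 7.49, 1.25, 12.2, 4.42 and 5.67 in the controls. All mutants lay above all of these controls, and the log2 fold change was 1.96 (SE 0.28, adjusted p = 0.000385). Of 55 tested ion channel genes 4 were higher and none lower, among them Kcnip1 (1.52), Kcnj3 (1.33) and Kcnh1 (0.57). Over all genes 1.36% were called higher and 0.48% lower. Kcnj3, a subunit of the G protein-gated potassium channel, was at 43.6 to 120 CPM in mutants and at 29.7 to 49.3 in controls, and only mutant 1 fell in the range of the controls. Of 28 tested modulator receptors Drd3 and Gpr149 (0.81) were higher and Gpr52 and Grm8 (-1.08) lower. Grik4 was the 1 gene called of 15 glutamate receptor genes (1.33) and Gabra3 the 1 of 18 of the GABA system (0.79). At the shares over all genes 1 call in a list of this size says little about the list.

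Among the other genes Cartpt, the CART peptide precursor, was at 12.4 to 25.6 CPM in mutants and at 1.25 to 9.94 in controls, without overlap (log2 fold change 1.80, adjusted p = 0.00307). Fam126a was at 44.4 to 64.1 CPM in mutants and at 9.58 to 23.2 in controls (1.80). Sox1ot, Rbm20 and Cacng5 had log2 fold changes of 1.90, 1.82 and 1.77 with overlapping groups. In the cyclic AMP cascade Pde4d was higher by 0.69 and 52 of 53 genes were not called. Plcb4 (0.72) was close to the threshold at adjusted p = 0.049. Of 30 interferon genes only 3 were expressed enough to be tested. None of the 7 striosome and 4 matrix genes tested, none of 13 stress genes and none of 13 genes of calcification and phosphate handling was called. Over all genes 1.36% were called higher and 0.48% lower, so no call among so few genes says little. Of 24 genes of hypoxia and glycolysis Pfkfb3 was lower (-0.82). Of the markers of other cell types outside the gate 15 could be tested, and edgeR called 0. At the shares over all genes this says little about them too. All 4 tested astrocyte markers were positive, with a median of 0.53 and Aqp4 at 1.17 (adjusted p = 0.0553), and the 2 tested in cortical D2 nuclei were negative, with a median of -1.14. The part of astrocyte RNA in the genotype result was not tested.

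On the lower side Klhl1, an actin-binding protein, was at 56.0 to 128 CPM in mutants and at 161 to 258.5 in controls, without overlap (log2 fold change -1.25, SE 0.19, adjusted p = 0.000894). Gm19410 and Atp6ap1l were also apart, with log2 fold changes of -1.07 and -0.99. Grm8, a presynaptic glutamate receptor, was at 85.0 to 200.5 CPM in mutants and at 170 to 422 in controls. Cnr1, the cannabinoid receptor, was at 88.7 to 350.3 CPM in mutants with a median of 186 and at 299.7 to 563 in controls with a median of 393, and the groups overlapped (log2 fold change -1.01, adjusted p = 0.04). Gm50370 (-1.10), Frem2 (-1.02) and Coch (-0.996) completed the set.

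**Figure D3:**
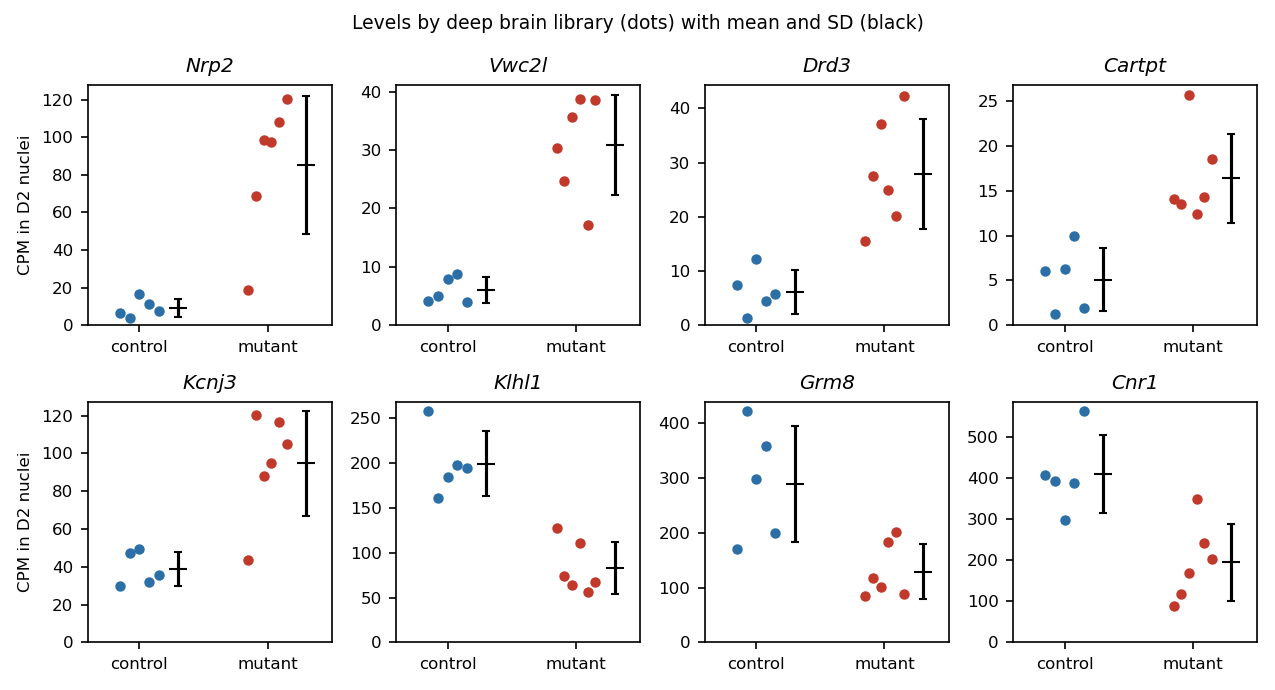
Levels of 8 called genes in D2 nuclei in CPM, 1 dot for each deep brain library, with the mean and SD in black; control mouse 2, with 2 nuclei, is left out. Nrp2, Vwc2l, Drd3 and Cartpt are higher in every mutant than in every control shown, Klhl1 is lower, and Kcnj3, Grm8 and Cnr1 overlap.

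The striatum is not uniform, and some genes mark position within it. Crym, Wfs1 and Cartpt are known from ventral and medial striatum and Cnr1 from dorsal and lateral striatum. Of 5 such genes Cartpt and Wfs1 (0.75, adjusted p = 0.0278) were higher and Cnr1 lower in mutants, and Crym (0.68, adjusted p = 0.271) and Nnat (0.41, adjusted p = 0.51) were not called. The shares over all genes were 1.36% higher and 0.48% lower. The summed level of Crym, Wfs1, Cartpt and Nnat was 211 to 311 CPM in mutants, with a median of 253, and 113 to 255 in controls, with a median of 149, with control mouse 6 the lowest and control mouse 1 the only control inside the mutant range. At least 1 UMI of the 4 genes was found in 67.8% to 83.3% of D2 nuclei of mutants and in 44.8% to 68.0% of those of controls. Over the 5 controls together, 577 D2 nuclei had such a UMI and 458 had none. Control mouse 6 gave 208 of the former and 256 of the latter, and control mouse 1 gave 168 and 79. Levels were pooled over these mice, so their ratio mixes differences between mice with differences within them. Of the genes called higher in mutants 130 of 151 (86.1%) were higher in the nuclei with such a UMI. Their median log2 ratio was 0.54 against 0.03 for all 11251 genes, of which 55.2% were above 0. The genes called lower in mutants were above 0 in 15 of 54 (27.8%), with a median of -0.29. The same mice gave these controls and the genotype comparison, so these ratios are a description. Among nuclei without such a UMI 6 genes of 7478 tested were called, 3 in each direction. Among nuclei with one 89 of 10647 were higher and 47 lower. Both fits left out control mouse 2, and all D2 nuclei without that mouse gave 162 higher and 83 lower. A library held 21 to 256 nuclei without such a UMI and 40 to 289 with one. Of the 207 genes 149 and 202 could be tested in these subsets. Since these nuclei were among those that chose the genes, their median log2 fold changes are a description: they were 0.68 for the higher and -0.48 for the lower genes in nuclei without such a UMI, and 0.82 and -0.72 in nuclei with one. The part of position in the genotype result was not tested.

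The cortical libraries of the same mice held 1007 nuclei that met the same limits, from 10 to 307 in a library. Mutants 5 and 6 and control 5 held 752 of them, at median depths of 9934 to 13654 UMIs. In the other libraries depth moved with genotype, at 23887.5 to 24344 in the 4 mutants and 16931 to 21004 in the 5 controls. Of the 207 genes, which were chosen by their deep brain effect, 169 could be tested, and 124 (73.4%) had the opposite sign, against 3591 of the 7515 genes tested in both and not called in the deep brain (47.8%). None of the 26 genes called in cortical libraries (8 higher, 0.104%, and 18 lower, 0.234%, of 7684) was called in the deep brain in the same direction, and 11 were called in both in opposite directions, among them Wfs1, Olfm3, Htr1f, Csgalnact1 and Prkg1, which are named after their values were seen. Without control mouse 2 edgeR called 0 in cortical libraries, with 544 at an unadjusted p under 0.05. Without mutants 5 and 6 and control 5, 17 were called (3 higher and 14 lower), and 120 of 152 genes (78.9%) had the opposite sign, against 50.0% of those not called. With median depth as a covariate 46 were called, 23 in each direction, and 122 of 169 genes (72.2%) had the opposite sign, against 46.9%. Both were chosen after seeing the data. Nrp2 was at 13.6 ± 11.2 CPM in cortical D2 nuclei of mutants and at 58.0 ± 27.6 in those of controls (SD, n = 6 each), with a log2 fold change of -1.49 and adjusted p = 0.0634. Klhl1 was at 202 ± 56.4 and 114 ± 44.2 (SD, n = 6 each), a log2 fold change of 0.78 that was not called (adjusted p = 0.124). The summed level of the 4 position genes was 67.1 to 399 CPM in mutants, where mutant 4 with 17 nuclei was the highest and the median was 115, and 177 to 314 in controls, whose median was 256, so that the medians lay in the reverse order of the deep brain.

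The difference itself was tested with the mouse as a block: the genotype effect in deep brain D2 nuclei lay above that in cortical D2 nuclei for 136 genes (1.33% of 10229) and below it for 77 (0.753%). Without control mouse 2 the counts were 151 and 158, and without mutants 5 and 6 and control 5 they were 59 and 28. Of these 213 genes 101 were among the 207, which were chosen by the deep brain effect that enters this difference, so this overlap is a description. For Nrp2 it differed by 5.24 on the log2 scale (adjusted p = 2.53e-10) and for Klhl1 by -2.08 (adjusted p = 0.000149). When the deep brain and cortical D2 nuclei of each mouse were summed, edgeR called 0 of 12394 genes, with 1138 at an unadjusted p under 0.05, and the 207 genes, chosen on the deep brain part of these sums, had a median of 0.48 for the higher and -0.37 for the lower genes. Genotype and the division of striatal tissue between the dissections cannot be told apart in the deep brain libraries alone.

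**Figure D4:**
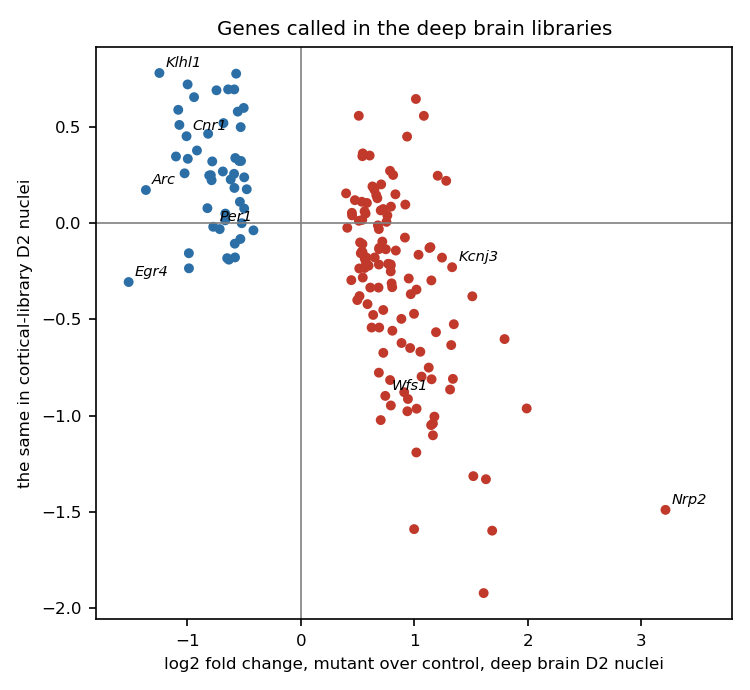
Log2 fold change of mutant over control in deep brain D2 nuclei (horizontal) and in cortical-library D2 nuclei (vertical) for the 169 genes called in the deep brain and tested in both, red where higher and blue where lower in the deep brain. Of these, 124 lie in the quadrants of opposite sign, with Nrp2 at 3.21 and -1.49.

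Immediate early genes are switched on by neurons within minutes of activity. All 19 that could be tested had a negative log2 fold change, with a median of -0.88 against 0.01 for all genes, and 3 were called lower and none higher. Of all genes tested 0.48% were called lower and 1.36% higher. Egr4, a zinc finger transcription factor, was at 14.1, 5.46, 7.80, 10.8, 9.09 and 9.25 CPM in mutants 1 to 6 and at 56.6, 15.0, 10.3, 22.1 and 17.4 in controls 1, 3, 4, 5 and 6. Control mouse 1 stood far above the rest and control mouse 4 lay in the mutant range, and the log2 fold change was -1.52 (SE 0.35, adjusted p = 0.0232). Arc, a postsynaptic protein, was at 8.91 to 32.9 CPM in mutants and at 19.3 to 122 in controls, with control mouse 1 again the highest (log2 fold change -1.36, adjusted p = 0.0351). Without control mouse 1 neither was called, with log2 fold changes of -0.77 for Egr4 (adjusted p = 0.146) and -0.79 for Arc (adjusted p = 0.226). Egr4 also lost its call without mutant 2 or 3 and with DESeq2, in 6 of 29 alternatives in all, and Arc without control 5 or 6 or mutants 2, 3, 5 or 6 and with DESeq2, in 14 of 30. Per1, a clock gene that activity also induces, was at 50.0 to 68.8 CPM in mutants and at 70.6 to 122 in controls, without overlap (log2 fold change -0.77, SE 0.15, adjusted p = 0.00609), and kept its call without any 1 mouse.

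The summed level of the 19 genes was 729 to 907 CPM in mutants (median 818) and 1879, 1136, 861, 1295 and 1304 in controls 1, 3, 4, 5 and 6. Only control mouse 4 fell within the mutant range. In D1 nuclei of the same libraries 5 of 18 were lower, where 0.731% of all genes were, and their median log2 fold change was -0.96 against 0.00 for all genes. In cortical D2 nuclei the summed level was 872 to 1785 CPM in mutants and 759 to 1413 in controls, 0 of 13 genes were called by edgeR and the median log2 fold change was 0.00. The genotype effect in deep brain nuclei lay below that in cortical nuclei for 4 of 18: Dusp6 (-1.50), Arc (-1.48), Egr1 (-1.04) and Nr4a1 (-0.86). Of all genes tested 0.753% lay below.

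**Figure D5:**
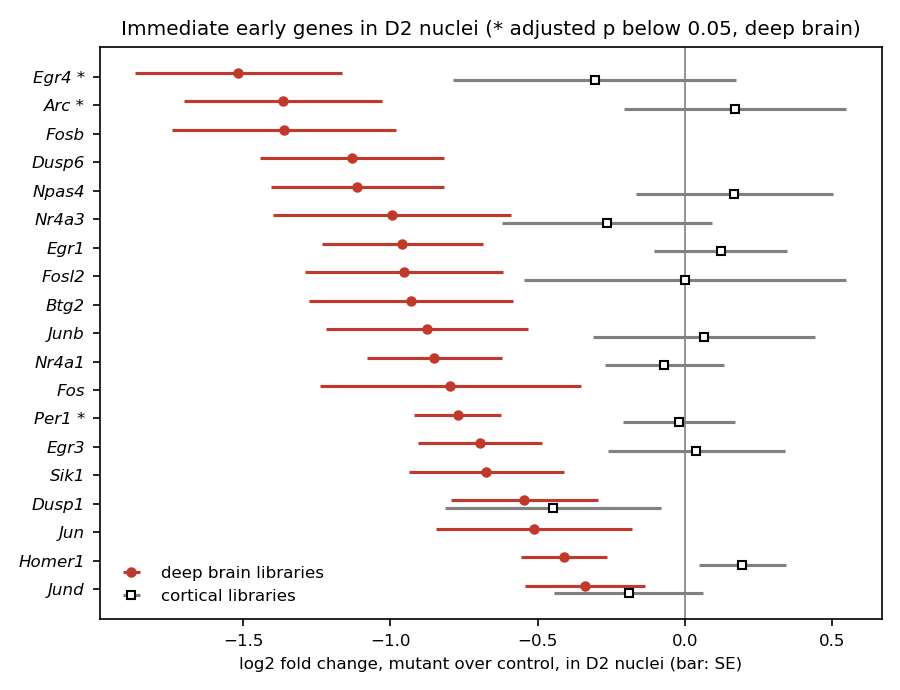
Log2 fold change of mutant over control with its standard error for the 19 immediate early genes in D2 nuclei of deep brain libraries (red circles) and, where tested, of cortical libraries (open squares). All 19 deep brain values are below 0, from -1.52 for Egr4, whereas the 13 cortical values lie on both sides of 0.

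The called members Egr4 and Per1 are shown by their promoters because genes of this class commonly carry cyclic AMP response elements. The 250 bases before each start come from RefSeq (GRCm38.p6), which lists 2 starts for Per1, and capitals mark the half-site TGACG or its complement CGTCA, searched on both strands. Arc is not in that table.
Egr4, chr6:85513590-85513839, minus strand: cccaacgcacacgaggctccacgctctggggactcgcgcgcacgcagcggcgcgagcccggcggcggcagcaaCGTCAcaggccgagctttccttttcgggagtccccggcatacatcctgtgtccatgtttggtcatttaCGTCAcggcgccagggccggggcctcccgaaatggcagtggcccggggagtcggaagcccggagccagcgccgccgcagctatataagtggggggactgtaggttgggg
Per1, chr11:69098699-69098948, plus strand: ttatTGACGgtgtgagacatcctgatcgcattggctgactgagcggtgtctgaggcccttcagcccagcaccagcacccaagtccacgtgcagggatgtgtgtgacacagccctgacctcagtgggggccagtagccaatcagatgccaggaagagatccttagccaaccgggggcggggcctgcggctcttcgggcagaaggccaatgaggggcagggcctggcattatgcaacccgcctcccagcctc
Per1, chr11:69099902-69100151, plus strand: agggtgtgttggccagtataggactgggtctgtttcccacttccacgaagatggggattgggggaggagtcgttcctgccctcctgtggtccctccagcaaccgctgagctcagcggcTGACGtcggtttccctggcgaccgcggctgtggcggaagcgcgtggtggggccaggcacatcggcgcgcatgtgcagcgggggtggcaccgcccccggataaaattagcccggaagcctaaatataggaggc
The Egr4 window holds 2 half-sites and each Per1 window 1, and 17.8% of all 32851 windows of this length hold at least 1. None of the 3 holds the full element TGACGTCA, which 1.55% of the windows hold, so these matches are a description of the letters only.

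The test of whether the genotype effect differed between D2 and D1 nuclei called 30 genes above (0.256% of 11727) and 27 below (0.23%) in D2 nuclei. On simulated counts this test found 60.0% of 200 changed genes, against 88.5% for the genotype test. A gene that was not called is therefore no evidence of equal effects. Without control mouse 2 the counts were 31 and 34, and without mutant 1 they were 47 and 44. DESeq2 gave 21 and 15, and the replicate number as a block gave 5 and 7. In D1 nuclei alone 146 genes were higher in mutants (1.32% of 11083) and 81 lower (0.731%), and both comparisons share the same mice. For the position genes and the immediate early genes none of the 5 and none of the 20 tested differed between the kinds by edgeR. With so few genes called in all, this says little about them.

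Nts, the neurotensin precursor, was at 18.6 ± 6.73 CPM in D2 nuclei of mutants (SD, n = 6) and at 28.3 ± 25.5 in those of controls (SD, n = 5), whereas in D1 nuclei it was at 43.0 ± 25.1 and 2.89 ± 1.62, a difference of the effects of -4.92 (adjusted p = 2.66e-08). Htr4, a serotonin receptor, was at 207 ± 67.3 and 225 ± 94.4 CPM in D2 nuclei and at 249 ± 76.7 and 112 ± 67.3 in D1 nuclei (-1.45). Nt5e was at 49.9 ± 11.6 and 45.9 ± 6.30 CPM in D2 nuclei and at 9.49 ± 1.85 and 1.51 ± 0.94 in D1 nuclei (-2.16). Oprd1 was at 63.0 ± 7.63 and 59.5 ± 8.22 CPM in D2 nuclei and at 3.66 ± 1.76 and 0.40 ± 0.57 in D1 nuclei, where it was too low to be tested by itself, so its difference rests on a group near 0. Kcnj3 was the reverse case, at 94.7 ± 27.9 and 38.8 ± 9.00 CPM in D2 nuclei and at 115 ± 32.0 and 99.2 ± 24.6 in D1 nuclei (1.04). Ebf1, at 8.55 ± 4.03 and 3.98 ± 3.25 CPM in D2 nuclei, was at 158 ± 51.8 and 373 ± 79.8 in D1 nuclei (2.60). Zar1l was at 4.15 ± 2.37 and 10.6 ± 2.60 CPM in D2 nuclei and at 10.0 ± 5.28 and 2.63 ± 1.76 in D1 nuclei (-3.31), and was called lower in mutants in D2 nuclei (-1.45, adjusted p = 0.00665) and higher in D1 nuclei (1.79, adjusted p = 0.0178). Eya1 (1.67) and Bach2 (0.78) completed the listed members that were called, and Bach2 lost its call with the replicate number as a block. Of the genes named for the other comparisons, Vwc2l (2.23), Sntg2 (1.65), Nell1 (-1.44), Fam126a (0.92) and Gm19410 (0.68) were also called, a choice made after their values were seen. In these sums, fewer nuclei of a subtype and less RNA per nucleus cannot be told apart.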

How the data were processed

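Single nuclei were profiled with the 10x Genomics 5′ kit. The authors aligned reads with Cell Ranger 5.0.1, introns included, to mm10 after bcl2fastq 2.20.0.422 and deposited raw UMI counts per gene and barcode for 24 libraries. Nuclei with over 500 and under 7000 detected genes and under 20% mitochondrial UMIs were kept. Counts were summed over D2, D1 and other GABAergic nuclei of each library. The latter had a Gad1 and Gad2 sum of at least 3 and the same exclusion limits, and none of Rgs9, Drd1, Drd2, Adora2a or Gpr6. No doublet caller was run, and an upper limit of 2 times the median UMIs was tried as an alternative. Sums were tested with edgeR 4.0.16 (quasi-likelihood, filterByExpr, TMM, Benjamini-Hochberg threshold 0.05, R 4.3.3), with DESeq2 1.42.0 as an alternative, and tested on simulated data. Shares were compared with exact permutation tests.

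Groups came from the labels, and mice are the replicates. Replicate numbers were not used as pairs: the labels name no shared litter or batch, and 3 of 6 correlations were over 0.1. Labelled ages matched for mice 1 to 4 of both genotypes, for mutant 5 with control 6 and for mutant 6 with control 5. A block of mice matched by age was tried as an alternative. Members and lists were chosen with earlier results of these data known. The genes named were the 10 largest changes in each direction between genotypes (at least 10 CPM), the 12 against D1 (at least 20 CPM, same sign in 12 libraries), the 8 against other GABAergic nuclei, the 5 smallest adjusted p of the difference between kinds, and list members. The fits in D1 nuclei, in cortical libraries, between dissections, per mouse and by position genes were added after seeing the data. Gene positions came from GENCODE M21. Results for a few genes are not reported here.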

Additional observations from a re-analysis of the deposited data

Results flagged for a closer look

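The 1007 nuclei in cortical libraries that met the D2 limits lie outside the deep brain comparison. For 213 genes the genotype effect differed between deep brain and cortical D2 nuclei by the interaction test. Between D2 and D1 nuclei the interaction test called 57 genes, among them the 5 with the smallest adjusted p and the members of gene lists: Nts (-4.92), Htr4 (-1.45), Zar1l (-3.31), Kcnj3 (1.04), Ebf1 (2.60), Bach2 (0.78), Eya1 (1.67), Nt5e (-2.16) and Oprd1 (-2.61), as log2 differences of the genotype effect. Oprd1 was too low in D1 nuclei to be tested there by itself and was not called with DESeq2. Bach2 was not called with the replicate number as a block.

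Single libraries stood far from their group in 8 cases of CPM in D2 nuclei, among 80 groups of values checked, and chance singles out about 1 in 20 groups. Among mutants these were Rbm20 in mouse 1 (0, the next 26.0), Fam126a in mouse 5 (64.1, the next 50.0) and Penk in mouse 3 (2700, the next 2018). Among controls Egr4 in mouse 1 (56.6, the next 22.1), Gm50370 in mouse 1 (90.2, the next 43.0), Frem2 in mouse 5 (64.1, the next 32.4), Pde4d in mouse 3 (495, the next 315) and Plcb4 in mouse 5 (36.5, the next 20.2) were the highest. No cause was tested.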

How the results depend on the processing

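The genotype calls in D2 nuclei (207) became 89 with DESeq2, 348 without a filter on low counts and 52 with mice 4 to 6 only. They became 119 with no oligodendrocyte UMI and 0 when both dissections were summed per mouse. Nuclei without and with UMIs of the position genes gave 6 and 136. Those 2 fits left out control mouse 2, without which all D2 nuclei gave 245. The 207 calls ranged from 113 to 259 when 1 mouse was left out. The replicate number as a block gave 203. Its pair correlations were -0.12 to 0.19, 4 of 6 mutants correlated best with the control of their number, and the block without control mouse 2 gave 206. A block of mice matched by age gave 167 (128 higher and 39 lower), of which 144 were shared with the 207. Each of the 34 genes named for genotype kept its direction, and each lost its call when both dissections were summed per mouse. The 26 calls in cortical libraries became 0 without control mouse 2, 17 without mutants 5 and 6 and control 5, and 46 with depth as a covariate. Calls of D2 against D1 nuclei (1497 of 11030 tested) became 705 in thinned nuclei, where 6598 genes could be tested. They became 789 in control libraries only and ranged from 1284 to 1611 without 1 mouse. The 24 genes named for D2 against D1 and the 16 against other GABAergic nuclei kept their calls. The 9861 calls against other GABAergic nuclei ranged from 9545 to 10006. The 57 genes whose genotype effect differed between kinds became 36 with DESeq2, 148 without a filter and 12 with the replicate block, under which Bach2 was not called, and ranged from 38 to 91, the highest without mutant 1.

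The difference in the D2 share of nuclei turned to -0.48 percentage points in mice 4 to 6, and ranged from -0.14 to 1.07 without 1 mouse. That in the D2 share of projection neurons turned to -4.59 with receptor gene limits of 2 UMIs and to -4.05 in mice 4 to 6. It ranged from -1.58 to 5.38 without 1 mouse. The replicate block gave exact permutation p = 0.812 and 0.719. With 3 mice against 3 no p can be below 0.1. The genes whose effect differed between dissections (136 and 77, 213 in all) became 151 and 158 (309) without control mouse 2 and 87 without mutants 5 and 6 and control 5. The cause was not tested. Depth per nucleus limits low genes: Pdgfb and most interferon genes could not be tested between genotypes in D2 nuclei.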
